A study of Mus musculus with 8 samples.

Results

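In mouse hepatocytes that lack Lcmr1, 78 protein-coding genes stood at 25% or less of their control level (0.886% of the expressed protein-coding genes). They were chosen by their values in the RNA count table, as CPM (counts divided by the library's total and scaled by a fixed factor). The mean control level had to be 5 CPM or more, the mean knockout level at most 0.25 of it, and each knockout library had to lie below each control library. Major urinary protein (Mup) and cytochrome P450 (Cyp) genes were left out by name, 18 and 12 that met the values. The 78 genes were thus drawn from 8804 protein-coding genes expressed at 5 CPM or more, among 17132 protein-coding genes and 27277 genes in the table. Because these RNA values chose the genes, they are given below as a description, with no test.

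Lcmr1 and Med19 are names of the same gene. Its product is part of Mediator, which connects transcription factors bound to DNA with RNA polymerase II. The liver's own products, plasma proteins, bile acid carriers, detoxifying enzymes and steroid-converting enzymes, are made almost entirely by hepatocytes, and their genes are switched on by liver-enriched factors such as HNF1, HNF4A, FOXA and C/EBP. A share of them also differs between male and female mice, under control of the pulse pattern of growth hormone.

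The knockout cells (Lcmr1 f/f crossed to albumin-cre, n = 3 RNA libraries) carried a Cre recombinase driven by the albumin promoter, which is active in hepatocytes. Control cells (Lcmr1 f/f, n = 3 RNA libraries) had the floxed gene, and their labels name no Cre. All cells of both genotypes were primary hepatocytes cultured for 24 h and given 100 nM glucagon for 12 h, so no library lacks glucagon, and the labels give neither age, sex nor strain. A knockout and a control library of chromatin immunoprecipitation (ChIP) complete the set of 8 libraries.

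Total counts ranged from 22191786 to 26595249 per RNA library. Med19 had 3.53, 6.30 and 3.83 CPM in the knockout libraries and 5.79, 9.02 and 11.2 CPM in the controls, so that knockout replicate 2 stood above control replicate 1. Scaled by TMM, its log2 fold change was -1.50 (edgeR adjusted p = 0.0120), and without knockout replicate 1 it was -1.35 (edgeR adjusted p = 0.0505). Albumin, the defining hepatocyte product, had 16913, 25245 and 17386 CPM in the knockout libraries and 57413, 62752 and 63439 CPM in the controls. Other hepatocyte markers were lower by a smaller fold. On average Apob had 2928 CPM in the knockout and 3264 CPM in the controls, Apoa1 7319 and 9181, and Ttr 2444 and 4984. Hnf4a had 713 and 1210 CPM, Serpina1c 117 and 217, and Trf 10.0 and 23.4. All 6 RNA libraries held Y-linked transcripts, with 418 to 459 counts of Kdm5d in the knockout libraries and 311 to 319 in the controls, and Xist had 2 to 6 counts in the knockout libraries and 0 to 8 in the controls. Nothing in the labels says that numbered libraries came from separate animals, so the spread between them may be technical.

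The 78 genes stood at a median of 7.65 CPM in the knockout (0.0127 to 789) and 67.1 CPM in the controls (5.01 to 5932). A gene's knockout level had a median of 14.8% of its control level, with a range of 0.187% to 24.9%. Over all 8804 expressed genes the same median was 141%, so the typical gene was higher in the knockout on this scale. Of the expressed genes, 552 (6.27%) had each knockout library below each control library, 5591 (63.5%) had each knockout library above each control library, and 120 had a ratio of 0.25 or less. Of those 120 genes, 12 had overlapping libraries. In the edgeR fit over 15135 genes, 13.0% were called lower (adjusted p under 0.05) and 12.6% higher. All 78 genes passed the count filter and 76 were called lower, a count that the rule nearly fixes. The exceptions were Trib1 and Igfbp1, which also have no adjusted p in the authors' deposited table, where the other 76 are marked significant. For genes outside the 78, calls and signed values in parentheses are edgeR log2 fold changes on the TMM scale, which takes the typical gene as level. With library size alone, the scale of the CPM values, the median over all tested genes was 0.60, and 4.08% of tested genes were called lower and 50.9% higher. Results that change on that scale are given beside the others, and their counts are to be read against these shares. The number of genes called over all tested genes also shifted when a library was left out, by the range given in the last section. List counts from such fits are to be read against that range. Counts of a gene list leave out its members among the 78 unless stated. A percentage after a gene's name is its mean knockout CPM relative to its mean control CPM. In bulk RNA, fewer cells of a type and less RNA per cell cannot be told apart.

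**Figure D1:**
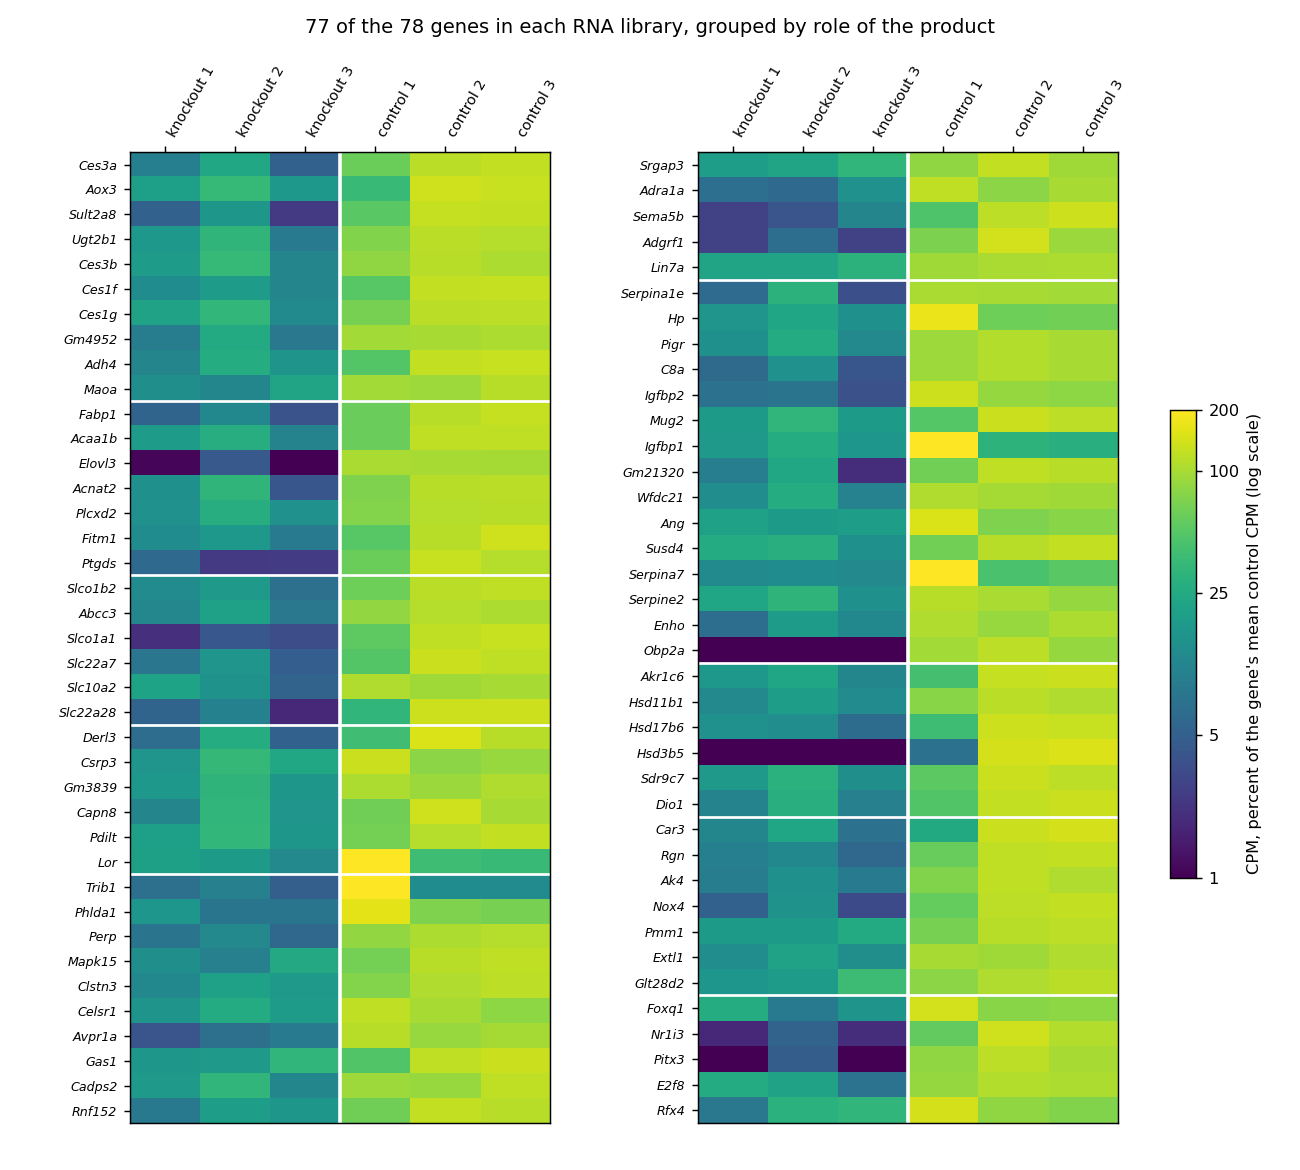
Level of 77 of the 78 genes (rows) in the 3 knockout and 3 control RNA libraries (columns), as percent of the gene's mean control CPM on a log colour scale held between 1% and 200%. White lines part the roles, in the left panel conjugating and oxidising enzymes, lipid genes, transporters, other proteins and signalling genes, and in the right panel the rest of the signalling genes, secreted proteins, hormone enzymes, small-molecule enzymes and transcription factors. Knockout replicate 2 was the highest knockout library for 59 of the 78 genes and control replicate 1 the lowest control for 53.

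For the 78 genes, 2 libraries stood apart within their groups. Knockout replicate 2 was the highest knockout library for 59 of the 78 genes (75.6%, against 26.6% of the other 8726 expressed genes) and more than 2 times the mean of the other knockouts for 28 (35.9%, against 0.711%). Control replicate 1 was the lowest control for 53 (67.9%, against 53.7%) and under 50% of the mean of the other controls for 23 (29.5%, against 3.53%). Set against each gene's control mean, the median over the 78 genes was 12.6%, 19.4% and 11.0% in knockout replicates 1, 2 and 3, and 74.2%, 113% and 111% in control replicates 1, 2 and 3. The knockout library with the most Med19 thus also had the highest median level of these genes, and the control library with the least Med19 had the lowest. The order did not hold at the other ends. Knockout replicate 1 had the least Med19 but not the lowest median, and control replicate 3 the most Med19 but not the highest median. The part of Med19 in these differences was not tested. Control replicate 1 differed from both other controls far beyond counting noise (chi-square per degree of freedom of 140.5 and 133.4, against 7.01 between the remaining pair). Among the knockouts the same measure was 30.1 between replicates 1 and 2, 27.9 between 1 and 3 and 56.5 between 2 and 3, so knockout replicate 2 stood apart for these genes and not clearly over all genes.

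**Figure D2:**
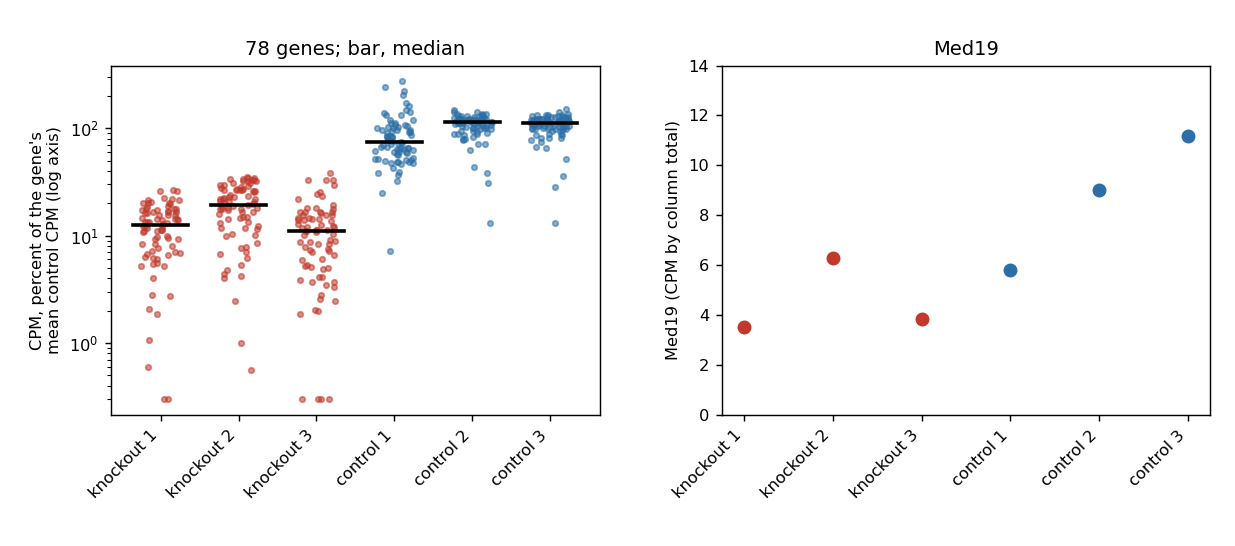
Left, level of the 78 genes in each RNA library as percent of the gene's mean control CPM (log axis, values under 0.3% drawn at 0.3%, 1 point per gene, bar at the median). Right, Med19 in the same libraries in CPM by column total; knockout replicate 2 lies above the other knockouts and control replicate 1 below the other controls in both panels.

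Promoters of these genes were poor in CpG. RefSeq promoter windows (GRCm38.p6, the mm10 build, 250 bases before to 50 after the start) could be matched to 58 of the 78 genes and to 7001 of the 8804 expressed genes. The observed over expected CpG ratio was 0.6 or more in 16 of the 58 (27.6%), against 76.7% of the expressed genes. Their windows held a median of 4.5 CpG and 54.0% G or C, against 22 CpG and 61.3%. The following windows run from 130 bases before the start to 20 after it. They are shown because they carry the letters that were more frequent in these promoters, TATAAA or GTTAAT on either strand, which stand in capitals. GTTAAT is an arm of the palindrome read by HNF1, a homeodomain factor of liver and kidney.
Fabp1 (chr6:71199749-71199898, plus strand): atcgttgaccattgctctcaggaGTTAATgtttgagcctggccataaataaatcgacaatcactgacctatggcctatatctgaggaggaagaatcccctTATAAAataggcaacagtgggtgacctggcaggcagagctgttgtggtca
Slco1b2 (chr6:141629388-141629537, plus strand): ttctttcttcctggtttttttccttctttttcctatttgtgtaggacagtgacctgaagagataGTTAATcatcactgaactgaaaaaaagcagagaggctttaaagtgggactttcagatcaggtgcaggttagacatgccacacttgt
Ces3b (chr8:105083625-105083774, plus strand): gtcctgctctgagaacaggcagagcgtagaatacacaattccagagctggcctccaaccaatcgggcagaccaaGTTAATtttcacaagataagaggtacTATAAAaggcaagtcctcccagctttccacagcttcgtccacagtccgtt
Serpina7 (chrX:139085217-139085366, minus strand): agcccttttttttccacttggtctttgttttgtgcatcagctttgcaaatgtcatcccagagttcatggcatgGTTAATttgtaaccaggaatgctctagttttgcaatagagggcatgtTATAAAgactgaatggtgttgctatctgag
Igfbp1 (chr11:7197657-7197806, plus strand): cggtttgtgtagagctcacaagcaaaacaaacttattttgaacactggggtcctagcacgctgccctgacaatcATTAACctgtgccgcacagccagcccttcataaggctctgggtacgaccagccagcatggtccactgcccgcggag
For contrast, the window of Ak4, one of the 16 genes with a CpG-rich promoter, is shown with each CG in capitals.
Ak4 (chr4:101419159-101419308, plus strand): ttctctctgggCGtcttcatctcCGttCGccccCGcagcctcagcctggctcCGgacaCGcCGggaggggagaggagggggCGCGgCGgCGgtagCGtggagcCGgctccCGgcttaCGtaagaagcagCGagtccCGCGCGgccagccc

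In Fabp1, whose knockout level was 7.07% of control, and in Ces3b (21.5%), the TATAAA began 30 bases before the start. The GTTAAT began 107 bases before the start in Fabp1, 66 in Slco1b2, 56 in Ces3b, 57 in Serpina7 and 56, on the opposite strand, in Igfbp1. The Ak4 window has 19 CG, against 0 to 6 in the windows of the other 5 genes. Of the 58 promoters, TATAAA was in 22.4% (6.93% of expressed genes' promoters) and GTTAAT in 19.0% (4.37%). TATAAA began 20 to 40 bases before the start in 4 genes, Ces1g, Ces3b, Fabp1 and Lor. Both motifs were present in 4 genes, and the GTTAAT promoters also included C8a, Mug2, Acnat2 and Serpina1e, the last from a RefSeq start 2078 bases away from the table's.

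Other letters were searched on both strands, whatever their overlap with another motif. Higher shares than in expressed genes were found for AAAGTCC, a part of the HNF4A element (12.1% against 4.27%), TTGCNNAA, a C/EBP element (17.2% against 8.30%), TGTTTGC, a FOXA variant (10.3% against 3.63%), ATTGATT, a ONECUT element (5.17% against 1.80%) and TGTTCT, a core element of the glucocorticoid receptor (17.2% against 11.7%). In that order these were 7, 10, 6, 3 and 10 of the 58 promoters. Within only the 200 bases before the start they were 4, 6, 5, 2 and 7. The STAT element TTCNNNGAA was in 8.62% against 6.36%, but within only the 200 bases before the start it was in 0% against 4.24%. The FOXA element TGTTTAC was in 1 of the 58 promoters (1.72% against 2.66%, or 1.72% against 1.63% within the 200 bases). Lower shares were found for GGGCGG, the GC box (34.5% against 67.1%) and TGACG, a part of the cyclic AMP response element (15.5% against 34.3%). CACGTG, the E box (8.62% against 10.8%), CCAAT (39.7% against 38.5%) and AGGTCA, a nuclear receptor core element (12.1% against 12.4%), were about as frequent in both. GGGCGG and TGACG contain CG, which was scarcer in these windows, and the windows held less G or C. No share of any motif, TATAAA and GTTAAT included, was taken at matched base composition. These matches describe letters and not bound sites.

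**Figure D3:**
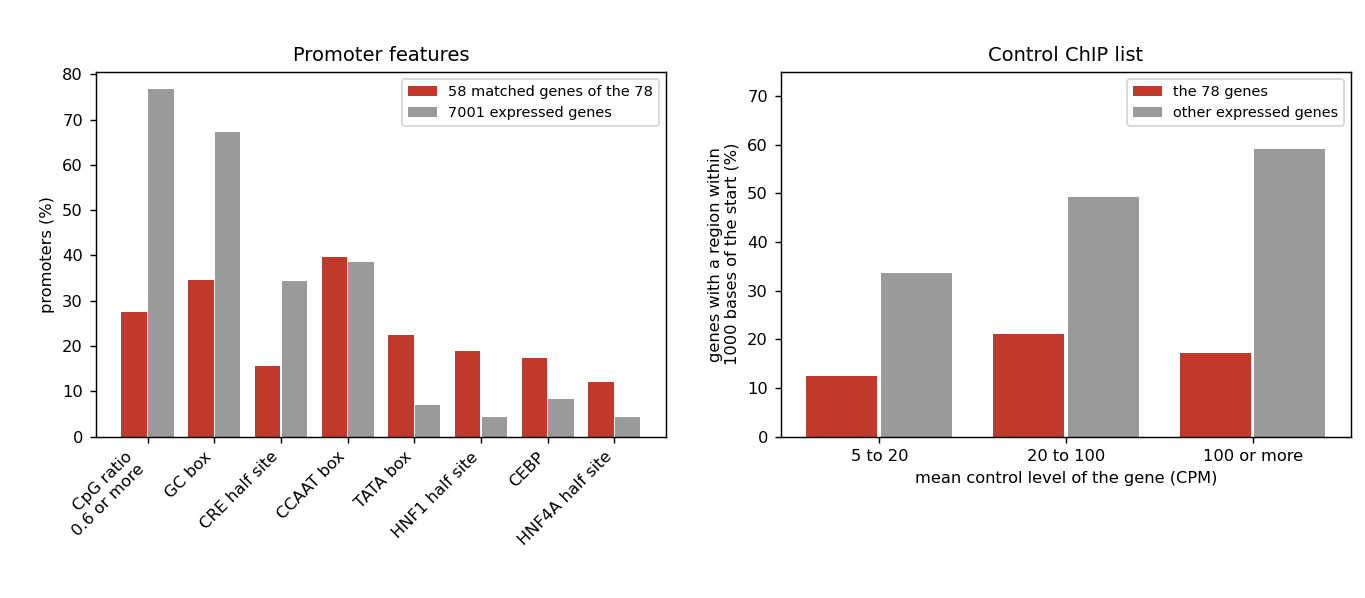
Left, percent of promoters with a CpG ratio of 0.6 or more or with the named motif, for the 58 matched genes (red) and the 7001 expressed genes with a promoter (grey). Right, percent of genes with a control ChIP region within 1000 bases of the start in 3 classes of control level, for the 78 genes (red) and the other expressed genes (grey); the red bars are the lower ones in each class, 12.5%, 21.1% and 17.1% against 33.6%, 49.2% and 59.1%.

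The control ChIP list, which the choice of genes did not use, placed fewer regions at these starts than at those of other expressed genes. The sample titles name RNA polymerase III as the target, while the series design text names Lcmr1, and the files do not settle which is right. In the knockout list, with 1649 entries, 0 of the 78 genes had a region within 1000 bases of the start (2.54% of expressed genes did) and 0 had one in the gene (5.47%). A count of 0 of 78 allows a share of up to 4.62% (95% exact interval, counting error only), so a difference at the starts was not detectable in that list. In the control list, with 22793 entries, 13 had a region at the start, or 16.7%, against 44.4% of expressed genes. The share was lower than in other expressed genes of like control level, at 17.1% (6 of 35) against 59.1% for genes of 100 CPM or more. Starts were the outer ends of the annotated genes. The matched RefSeq start lay within 100 bases for 45 of 58 genes, but 21715 bases away for Hsd11b1 and 2078 for Serpina1e. The share with a region at the start was also lower within CpG-rich promoters (5 of 16, or 31.3%, against 50.4%). In CpG-poor ones it was 5 of 42, or 11.9%, against 27.7%. Each of these shares rests on 5 genes, and neither difference was tested. Anywhere in the gene, 37 of the 78 had a control region (47.4%, against 55.5%), and among genes of 100 CPM or more 74.3% had one, against 83.0%. The 78 genes were shorter, with a median span of 17.7 kb against 24.4 kb over expressed genes. Shares anywhere in the gene, in either list, were not matched for length. With 1 library per genotype these shares have no replicate check.

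Where a control region lay within 1000 bases of the start, its width and height varied. The fold over background is the authors' own value for each entry. The highest was 45.5 for Fabp1, in a region of 7208 bases over the whole gene (chr6:71199778-71206985), followed by 29.0 for Igfbp1 (6770 bases, chr11:7197690-7204459) and 21.9 for the peroxisomal thiolase gene Acaa1b (11416 bases, chr9:119145797-119157212). In these 3 genes the strongest summit lay 3986, 4130 and 5018 bases downstream of the start. Phlda1 had 15.9 and E2f8 13.0, and the region of Elovl3, with a fold of 8.09, peaked 14 bases before the start. The median fold over the 13 genes was 8.09, against 6.18 over the other 3896 expressed genes with a region at the start. In the knockout list, Igfbp1 alone of the 78 genes had an entry within 5000 bases of its start, beyond the end of the gene, with a fold of 5.87 and its summit 5163 bases past the start.

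Secreted and plasma proteins formed one of the largest classes, with 15 of the 78 genes at a median of 16.9% of control. Serpina1e, an alpha-1-antitrypsin gene (ENSMUSG00000072849, chr12:103946931-103958975, minus strand), had the highest mean control CPM of the 78 genes. It had 375, 1774 and 218 CPM in the knockout libraries and 6063, 5988 and 5745 CPM in the controls. The controls were tight and knockout replicate 2 was over 4 times each other knockout. The other 4 genes of the Serpina1 cluster, which share much of their sequence so that reads could be split among them, were all called lower by edgeR, with log2 fold changes of -1.20, -0.66, -1.58 and -1.49 for Serpina1b, Serpina1d, Serpina1a and Serpina1c. Serpina1d was not called with library size alone (-0.07). Haptoglobin, Hp, which binds free haemoglobin and rises in the acute phase, had 625, 909 and 567 CPM in the knockout libraries and 6862, 2488 and 2585 CPM in the controls. Control replicate 1 stood far above the other controls for it, and without that library Hp was at 27.6% of control, outside the limit. Summed over 29 acute-phase genes, the knockout libraries ranged from 21264 to 24075 CPM, while control replicates 1, 2 and 3 held 73092, 33619 and 31726 CPM. Outside the 78, 9 of 27 tested genes of that list were called lower and 1 higher, or 12 lower and 5 higher without control replicate 1. Leaving out 1 knockout library gave 4, 3 and 4 lower for replicates 1, 2 and 3. The median log2 fold change was then -1.29, -1.27 and -1.24, against -1.23 with all libraries. Without control replicate 1 it was -0.42.

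The complement gene C8a, which encodes a chain of the membrane attack complex (ENSMUSG00000035031, chr4:104815679-104876398, minus strand), had 43.7, 104 and 29.2 CPM in the knockout libraries and 645, 760.4 and 708 CPM in the controls. Its partners C8b and C8g had edgeR log2 fold changes of -0.97 and -0.56 and were called lower, but with library size alone neither was called and C8g turned to 0.02. Of 43 other tested complement and coagulation genes, 25 were called lower and 4 higher, or 13 lower and 10 higher with library size alone, and 16 were lower without knockout replicate 1 or without knockout replicate 3. Pigr, the receptor that carries IgA into bile, had 249, 457 and 213 CPM in the knockout libraries and 1604, 1898 and 1743 CPM in the controls. Among binding proteins of insulin-like growth factors, Igfbp2 had 50.7, 53.4 and 25.8 CPM in the knockout libraries and 926, 604 and 568 CPM in the controls. Igfbp1, a gene induced by fasting, had 61.5, 94.3 and 58.1 CPM in the knockout libraries and 859.7, 111 and 102 CPM in the controls. The value of Igfbp1 turned on control replicate 1, without which it stood at 67.2% of control. Of the other 5 tested Igfbp genes, Igfbp4 was called lower (log2 fold change -1.03) and 4 were not called.

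Thyroxine-binding globulin, Serpina7, repeated that pattern, with 5.96, 6.34 and 5.85 CPM in the knockout libraries and 99.2, 21.4 and 25.3 CPM in the controls, or 25.9% of control without control replicate 1. The proteinase inhibitor Mug2 had 96.8, 179 and 97.3 CPM in the knockout libraries and 269, 712 and 644 CPM in the controls. Obp2a, a lipocalin, had 1 count in all knockout libraries together and 502 in the controls. The control over knockout ratio was 524 (95% exact counting interval 93.7 to 20757). Gm21320 (11.8% of control) is described in the table as major urinary protein 2, so it belongs with the excluded Mup family although its name does not. The remaining secreted genes, Wfdc21, Ang, Susd4, Serpine2 and the adropin gene Enho, stood at 16.9%, 19.4%, 23%, 22.6% and 12.3%. Ang lies within Rnase4 on the same strand, whose control level was 6.94 times its own, so reads of the pair could be mixed. The plasma protein list held 4 of the 78 genes, and of its other 45 genes 33 were called lower and 1 higher, with a median log2 fold change of -0.92, against 0.01 over all tested genes. The counts were 19 lower and 5 higher with library size alone.

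Membrane transporters were among the most reduced, with 6 genes at 3.26% to 13.9% of control. Slco1b2, which takes organic anions and bile acids up from blood (ENSMUSG00000030236, chr6:141629518-141686646, plus strand), had 76.3, 103 and 41.3 CPM in the knockout libraries and 369, 685 and 714 CPM in the controls. Its relative Slco1a1 (ENSMUSG00000041698, chr6:141907282-141946962, minus strand) had 4.94, 9.95 and 8.22 CPM in the knockout libraries and 126, 282 and 301 CPM in the controls. Control replicate 1 was under the other controls for both, yet far above each knockout. Of the other 4 tested Slco genes, Slco2b1 was called lower (-0.63) and Slco1a4 (0.58), Slco2a1 (0.05) and Slco3a1 (0.30) were not called. With library size alone Slco2b1 was not called and the other 3 were called higher. Abcc3, which exports conjugates and bile acids back to blood, had 58.9, 104 and 42.2 CPM in the knockout libraries and 424, 560.3 and 529 CPM in the controls. The apical sodium-bile acid carrier Slc10a2 had 7.1, 4.9 and 1.78 CPM in the knockout libraries and 35.2, 31.3 and 32.9 CPM in the controls, and the organic anion transporters Slc22a7 and Slc22a28 stood at 9.63% and 5.89%.

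Bile acid handling held 6 of the 78 genes, Slco1b2, Abcc3, Slco1a1, Slc10a2, Akr1c6 and Acnat2. Of the other 26 tested genes of that list, 13 were called lower and 3 higher, or 10 lower and 7 higher with library size alone. Those lower included the main sodium-dependent uptake carrier Slc10a1 (-2.30) and the sterol hydroxylase Cyp8b1 (-3.08). The counts still held Cyp genes, which were left out of the 78 by name. Without them 11 of 21 were called lower and 3 higher. The higher ones were the efflux pump Abcc4 (2.66), Klb (0.61) and Akr1d1 (0.60). Cyp7a1, the rate-limiting enzyme of bile acid synthesis, was not called (0.34), but was called higher with library size alone (0.93).

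Enzymes that conjugate, hydrolyse or oxidise drugs and endogenous compounds made up 10 genes, at a median of 16.8% of control. Carboxylesterases, which cleave esters and stored lipid, gave 4 of them. Ces3a (ENSMUSG00000069922, chr8:105048601-105058413, plus strand) had 170.0, 408 and 90.3 CPM in the knockout libraries and 1056, 2011 and 2147 CPM in the controls, and its neighbour Ces3b had 78.8, 148 and 47.5 CPM in the knockout libraries and 351, 480.1 and 447 CPM in the controls. Ces1f and Ces1g, adjacent on chromosome 8, stood at 14.5% and 22.5%. All 4 other tested Ces1 genes were called lower too, with log2 fold changes of -0.99 for Ces1c, -1.56 for Ces1d, -1.90 for Ces1e and -1.17 for Ces1b, of which Ces1c was not called with library size alone. Aldehyde oxidase Aox3 had 151, 264 and 126 CPM in the knockout libraries and 275, 1025 and 961 CPM in the controls. It lay just inside the ratio limit, at 24%, and control replicate 1 was the library nearest the knockouts. The sulfotransferase Sult2a8 had 26.3, 83.8 and 12.4 CPM in the knockout libraries and 262, 635 and 625 CPM in the controls, and the glucuronosyltransferase Ugt2b1 had 77.8, 149 and 42.5 CPM in the knockout libraries and 342, 540.0 and 510.0 CPM in the controls. In the Ugt2b family, 5 of 6 other tested genes were called lower, among them Ugt2b34 and Ugt2b36, which were not called with library size alone. Alcohol dehydrogenase Adh4 (17.8%), monoamine oxidase Maoa (15.9%) and Gm4952 (14.4%), described in the table as glycine N-acyltransferase-like, complete the class. Maoa averaged 6.96 CPM in the controls, while its relative Maob averaged 313 CPM in the knockout and 200 CPM in the controls. Maob was not called on the TMM scale (0.07). The list of carboxylesterase, flavin monooxygenase, alcohol and aldehyde dehydrogenase and related genes held 7 of the 78, and of its other 38 tested genes 22 were called lower and 7 higher. The list of conjugating enzymes held 2 of the 78, and of the other 50 tested 26 were called lower and 5 higher. The same lists gave 9 lower and 12 higher, and 15 lower and 16 higher, with library size alone.

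Of the lipid genes, Fabp1 (ENSMUSG00000054422, chr6:71199827-71205023, plus strand), the fatty acid carrier of the hepatocyte cytosol, had 102, 218 and 71.8 CPM in the knockout libraries and 1109, 2088 and 2339.5 CPM in the controls. Elovl3, which elongates saturated and monounsaturated fatty acids to very long chains (ENSMUSG00000038754, chr19:46131897-46135307, plus strand), had 6.08, 24.6 and 0.711 CPM in the knockout libraries and 574, 566 and 556 CPM in the controls. Its control libraries were nearly level and its knockout libraries differed widely among themselves. The other elongases split, with Elovl5 (-1.28) and Elovl2 (-0.79) called lower (Elovl2 not with library size alone) and Elovl6 (1.68) and Elovl1 (0.83) called higher. Acaa1b had 213, 311 and 123 CPM in the knockout libraries and 681, 1365 and 1364 CPM in the controls, whereas its near relative Acaa1a was not called (-0.09), or called higher with library size alone (0.49). The acyltransferase Acnat2, Plcxd2, the lipid droplet gene Fitm1 and the prostaglandin D2 synthase Ptgds stood at 16.9%, 18.7%, 12.9% and 3.72%. Over 47 other genes of fatty acid oxidation, 12 were called lower and 8 higher, or 7 lower and 21 higher with library size alone.

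Steroid and thyroid hormone enzymes were 6 genes. Hsd3b5, a steroid dehydrogenase of male mouse liver (ENSMUSG00000038092, chr3:98618634-98630252, minus strand), had 0, 1.29 and 0 CPM in the knockout libraries and 9.21, 182 and 192 CPM in the controls. Both extremes were single libraries, since control replicate 1 had 4.92% of the mean of the other controls and knockout replicate 2 had all 34 knockout counts. Hsd11b1, which regenerates active glucocorticoid, had 64.2, 104 and 68.2 CPM in the knockout libraries and 419, 618 and 562 CPM in the controls. Akr1c6, a 17-beta-hydroxysteroid dehydrogenase, had 113, 154 and 76.1 CPM in the knockout libraries and 282, 839 and 880.4 CPM in the controls, and Hsd17b6 had 29.9, 27.9 and 13.5 CPM in the knockout libraries and 80, 275 and 266 CPM in the controls. Dio1, which activates thyroid hormone, had 10.4, 26.7 and 9.76 CPM in the knockout libraries and 46.2, 119 and 126 CPM in the controls, and Sdr9c7 stood at 20.3%. Over 26 other tested steroid dehydrogenase genes, 12 were called lower and 3 higher, or 5 lower and 6 higher with library size alone, and 7 were lower without knockout replicate 1.

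Among 8 enzymes of sugars, nucleotides and other small molecules, carbonic anhydrase Car3 had 335, 662 and 216 CPM in the knockout libraries and 730.2, 3871 and 4224 CPM in the controls. Control replicate 1 held 18.0% of the other controls' mean for Car3. Regucalcin, Rgn, which takes part in vitamin C synthesis and calcium handling, had 82.4, 99.1 and 49.8 CPM in the knockout libraries and 487, 1001 and 1017 CPM in the controls. Adenylate kinase Ak4, the NADPH oxidase Nox4, the phosphomannomutase Pmm1, Extl1 and Glt28d2 stood at 10.8%, 7.87%, 20.3%, 16.1% and 24.3%.

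Transcription factors were 5 genes. Nr1i3 (CAR), the receptor that switches on drug-metabolising enzymes (ENSMUSG00000005677, chr1:171213970-171220701, plus strand), had 0.471, 1.37 and 0.514 CPM in the knockout libraries and 14.4, 34.3 and 27.6 CPM in the controls. It overlaps Tomm40l on the opposite strand, which had 11.8 CPM in the knockout and 12.8 CPM in the controls on average. The related receptor Nr1i2 was called lower (-0.86), but not with library size alone. Pitx3 had 0.118, 0.949 and 0 CPM in the knockout libraries and 16.4, 23.3 and 19.9 CPM in the controls. It lies 377 bases beyond the end of Elovl3 and points towards it, and since the strand setting of the counting is not given, reads running past Elovl3 could be counted as Pitx3. The forkhead factor Foxq1, the cell-cycle repressor E2f8 and the winged-helix factor Rfx4 stood at 16.9%, 18.2% and 23.5%. Gm2788 overlaps E2f8 on the opposite strand and averaged 4.76 CPM in the knockout and 14.4 CPM in the controls, where it was 1.43 times E2f8, so reads of the pair could be mixed. Of 67 other tested hepatocyte transcription factors, 19 were called lower and 7 higher, or 9 lower and 24 higher with library size alone, where 4.08% of all tested genes were lower and 50.9% higher. Without knockout replicate 1 or without knockout replicate 2, 12 were lower.

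Signalling and adhesion genes were 15, mostly of low abundance, at a median of 14.8% of control. Trib1, a pseudokinase that promotes degradation of C/EBP alpha, had 38.4, 54.7 and 27.2 CPM in the knockout libraries and 1489.7, 71.2 and 70.6 CPM in the controls. Its place among the 78 genes rested on control replicate 1, without which its knockout level was 56.6% of control. Phlda1 had 14.6, 7.06 and 7.03 CPM in the knockout libraries and 146, 64.5 and 60.6 CPM in the controls, and there the other controls alone left it at 15.3%. The vasopressin receptor Avpr1a, which signals through calcium, had 1.14, 1.97 and 2.41 CPM in the knockout libraries and 31.6, 24.6 and 27.5 CPM in the controls. The adrenergic receptor Adra1a, which also does, had 0.471, 0.418 and 0.988 CPM in the knockout libraries and 8.16, 5.43 and 6.71 CPM in the controls. Its relative Adra1b was far more abundant and not lower, with an average of 166 CPM in the knockout and 114 CPM in the controls. Adra1b was not called on the TMM scale (-0.03). The desmosome protein Perp (8.63%), the semaphorin Sema5b (5.98%), the adhesion receptor Adgrf1 (4.1%), the ubiquitin ligase Rnf152 (14.8%), the kinase Mapk15 (16.2%), calsyntenin Clstn3 (16.7%), the cadherin Celsr1 (19.9%), Cadps2 (20.5%), Gas1 (22.3%), Lin7a (24.6%) and Srgap3 (24.9%) make up the rest. The 6 proteins outside these classes were Derl3, which acts in degradation of misfolded proteins (12.7%), Lor (16.7%), Capn8 (19.9%), Gm3839 (21.5%), Pdilt (23.4%) and Csrp3 (24.4%). Lor, an epidermal protein gene, had 1.33, 1.18 and 0.79 CPM in the knockout libraries and 14.8, 2.55 and 2.39 CPM in the controls, again with control replicate 1 apart. Pdilt overlaps Acsm5 on the opposite strand, whose control CPM was 18.8 times its own.

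Genes known to be higher in male than in female mouse liver held 8 of the 78, Elovl3, Hsd3b5, Ugt2b1, Susd4, Serpina1e, Obp2a, Slco1a1 and Capn8. Of the other 26 male-biased genes on the list, 17 were called lower and 0 higher, with a median log2 fold change of -2.31. That count still held Mup and Cyp genes, some of which met the values of the rule. Without them 7 of 13 were called lower and 0 higher, with a median of -1.74, among them Serpina3k (-2.15), Egfr (-1.74) and C6 (-1.35). Female-biased genes held none of the 78, but Cyp4a14, on that list, met the values of the rule and was left out by name. Of 34 tested, 22 were called higher and 1 lower (Tox), with a median of 2.27. Without Mup and Cyp genes 15 of 24 were called higher and 1 lower, with a median of 1.95. The summed level of that list was 1499 to 1551 CPM in the knockout libraries and 2831, 882 and 858 CPM in control replicates 1, 2 and 3. Control replicate 1 stood apart through Cyp4a14, which had 33.4, 85.9 and 5.06 CPM in the knockout libraries and 2319, 304 and 298 CPM in the controls and was not called. Examples of the higher genes were lipoprotein lipase, Lpl, with 158, 132 and 157 CPM in the knockout libraries and 9.55, 11.9 and 11.4 CPM in the controls, and Cyp2a4, with 81.7, 83.1 and 158 CPM in the knockout libraries and 0.902, 0.678 and 0.901 CPM in the controls. Libraries of both genotypes held Y-linked transcripts and few or no Xist counts, as given above. Without control replicate 1 and knockout replicate 2 together, 22 of the 26 male-biased genes were called lower and 25 female-biased genes higher. The male-biased count was 11 without control replicate 1, 11 without control replicate 3 and 10 without knockout replicate 1. The female-biased count was 24 without control replicate 1, and 15 or 16 when any other single library was left out.

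Growth hormone signalling genes gave a mixed picture. Of 17 tested outside the 78, 4 were called lower, the receptor Ghr (-1.05), Igf1 (-1.62), Egfr and Onecut1 (-1.75), and 2 were called higher, Stat5a (0.56) and Cux2, a factor typical of female liver (3.09). Stat5b (-0.21), Socs2 (-1.36), Cish (-2.11) and Bcl6 (0.13) were not called. Without knockout replicate 1 the lower count was 2. With library size alone Ghr was not called and Stat5b turned to 0.37, also not called.

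**Figure D4:**
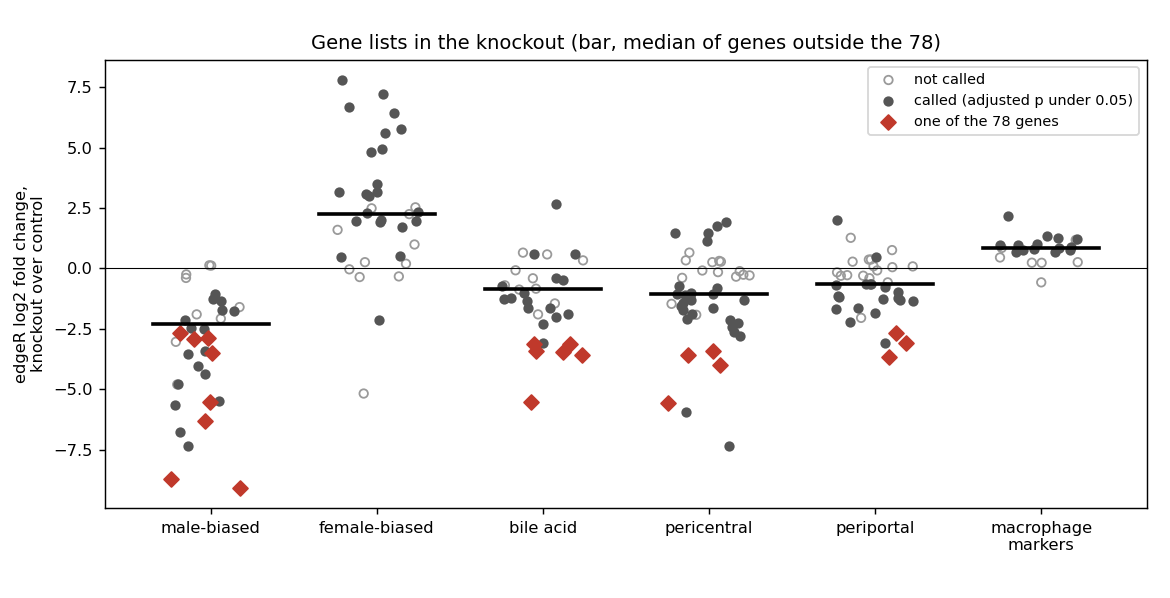
edgeR log2 fold change, knockout over control, of the tested genes in 6 lists (1 point per gene, filled where called, red diamonds for the 78 genes, bar at the median of the list's genes outside the 78). Male-biased genes, Mup and Cyp included, have a median of -2.31 and female-biased genes of 2.27.

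Both zones of the liver lobule were represented. The pericentral list, genes expressed near the central vein, held 4 of the 78 (Slco1b2, Nr1i3, Rgn and Car3), and of its other 41 genes 22 were called lower and 5 higher. Periportal genes held 3 (Pigr, Hsd17b6 and Susd4), and of the other 35 genes 17 were called lower and 2 higher. With library size alone the pericentral genes gave 16 lower and 11 higher and the periportal genes 11 lower and 10 higher. These counts also held Cyp genes. Without Mup and Cyp genes, on the TMM scale, 16 of 34 pericentral genes were called lower and 5 higher. For periportal genes it was 15 of 33 lower and 2 higher. More macrophage markers were called higher than lower in the same libraries. Of 21 tested, 14 were called higher and 0 lower, and their summed level was 1121 to 1349 CPM in the knockout libraries and 361 to 475 CPM in the controls. None of these markers was at 0 in all libraries, and their part in the lower share of hepatocyte transcripts was not tested. Summed endothelial markers were 712 to 1104 CPM in the knockout and 413 to 529.5 CPM in the controls, and stellate cell markers were 640.2 to 707 CPM in the knockout and 232 to 448 CPM in the controls. On the TMM scale 1 of 20 endothelial and 3 of 19 stellate markers were called higher and 0 lower, against 16 and 14 higher with library size alone.

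The 78 genes lay on 18 autosomes and the X chromosome, with 6 pairs of adjacent genes among them, Capn8 with Susd4, Sdr9c7 with Hsd17b6, Elovl3 with Pitx3, Csrp3 with E2f8, Ces1f with Ces1g and Ces3a with Ces3b. The genes just inside the limit were Srgap3 (24.9%), Lin7a, Csrp3, Glt28d2 and Aox3 (24%), and those just outside were Tmtc2 (25.4%), S100a10, Rdh16f2, Leap2 and Hrg (25.9%). When each of the 6 libraries was left out in turn, 56 of the 78 genes met the rule in every case. Of genes with a deposited cellular component term, 16 of 75 (21.3%) were extracellular, against 7.13% of the annotated expressed genes, and 18 (24.0%) belonged to the endoplasmic reticulum, against 12.4%.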

How the data were processed

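RNA was sequenced from 3 knockout and 3 control libraries and ChIP from 1 library of each genotype. Per gene on mm10, the authors deposited raw counts, and HISAT2 2.1.0, Bowtie2 2.2.3 and HTSeq 0.6.0 are named in the submitters' processing notes. Its strand setting is unknown. The table also carries the authors' mean signal over libraries, log2 fold changes, fold changes (ratios), p-values and adjusted p-values. Each entry of the deposited peak lists has a score, -log10 values of p and q, and the fold (ratio) over background, all from the authors' caller; MACS2 is named without a version in the same notes.

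CPM values were counts divided by the column total. The whole table was fitted with edgeR 4.0.16 in R 4.3.3 (filterByExpr with a minimum count of 10 and total of 15, TMM scaling, quasi-likelihood test, two-sided, Benjamini-Hochberg adjustment, threshold 0.05), and the procedure was tested on simulated data. Control TMM factors were 0.773, 0.837 and 0.837, and knockout factors 1.22, 1.20 and 1.27. Alternatives included other scalings, no filter, DESeq2 1.42.0 and leaving out libraries. Regions were assigned to starts within 1000 bases. The 78 genes, 29 gene lists (1005 of 1019 entries in the table), role classes and motifs were chosen with earlier results of these data known. Genes were named by abundance, ratio, nearness to the limit and list membership. The values of 1 of the 78 genes are not reported here; it is counted in all totals.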

Additional observations from a re-analysis of the deposited data

How the results depend on the processing

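Of 78 genes, edgeR called 76 lower, and between 63 (no count filter) and 77 (control replicate 1 and knockout replicate 2 both left out, an alternative chosen after seeing the data) under the alternatives. The rule itself gave 140 genes, the 78 included, when CPM was taken from library sizes scaled by TMM and 140 with relative log expression factors, and 72 to 87 when 1 library was left out. Of these, leaving out control replicate 1 lost 8 genes (Ang, Csrp3, Hp, Igfbp1, Lor, Rfx4, Serpina7 and Trib1). Over all genes, 3865 were called, 8328 with library size alone (7711 higher and 617 lower), which moved the median over all tested genes to 0.60 on the log2 scale, and 2236 to 4921 with 1 library left out. With library size alone 26 male-biased genes were called lower and 27 female-biased genes higher. The male-biased count of 25, the 8 genes of the 78 included, became 14 with no count filter and 15 to 28 with 1 library left out. The female-biased count of 22 became 20 with no count filter and 15 to 24 with 1 library left out. Med19 ranged from -1.84 to -1.30 with 1 library left out. The share of the 78 genes with a control ChIP region, 16.7% at 1000 bases, was 30.8% at 5000 bases (49.9% of expressed genes) and 47.4% anywhere in the gene. Of 544 log2 ratios of single genes under other settings, 526 moved by less than the spread between replicates; the rule itself fixes the sign of most of these ratios, so it is no sign of stability. With the replicate number as a block 3468 genes and 73 of the 78 were called; deviations of same-numbered libraries had correlations of 0.110, 0.0521 and 0.0937, so the numbers were not taken as pairs. Promoters whose RefSeq start lay within 500 bases of the table's gave a CpG-rich share of 26.9%, against 78.2% of expressed genes. In sparse genes such as Obp2a the knockout level rests on 1 count.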
